A study of Cyprinus carpio with 18 samples.

Results

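Linker histone H1 genes of the common carp (Cyprinus carpio) were followed through 6 stages of early development. They were taken from the deposited series table as the protein-coding rows whose description names histone H1, H1 histone, linker histone or histone H5, without the word binding. The limit was the 10 rows with the highest summed read counts over 18 libraries, but 8 of 49264 protein-coding rows matched, so all 8 were kept and no matching row lay outside the limit. By description 6 of the 8 are histone H1.0-like, 1 is histone H1.4-like and 1 is histone H1-like. Membership therefore rests on the deposited names, and the proteins themselves were not checked.

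Linker histones bind the nucleosome where DNA enters and leaves it and help chromatin to fold. Vertebrates have several kinds: oocyte forms that are stored in the egg and are replaced during early development, forms made mainly in S phase together with the core histones, and replacement forms such as H1.0, which accumulate in cells that divide slowly or have differentiated. The oocyte form of Xenopus is known as B4, and the H1.0 family is related to histone H5 of bird red blood cells. Messenger RNAs of the S-phase forms usually end in a stem-loop and have no poly(A) tail.

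RNA came from whole wild-type carp of the FFRC No.2 strain, a selected line bred from several carp varieties, obtained by natural spawning. The 6 groups, with 3 libraries each, were defined by age: 2 hours post-fertilization (hpf) for cleavage, 6 hpf for the blastocyst, 12 hpf for gastrulation, 20 hpf for organ formation, 64 hpf for hatching, and 1 day post-hatching (dph) for the larva. The strand-specific libraries were made after removal of ribosomal RNA, so RNAs without a poly(A) tail were not selected against by that step. Equal amounts of a stage's RNA were pooled ahead of library making, and separate spawnings are not stated. The p-values below thus reflect only how far libraries of the same stage spread, possibly for technical reasons. In the main fit that spread was estimated over all 6 stages together. Library totals ran from 16326813 to 43270557 counts.

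Summed counts over the 18 libraries ranked the rows and are given as a description. LOC109094231, histone H1.0-like, held 2846 counts in all and had a count in each of the 18 libraries. LOC109094313, histone H1.0-like, held 1594 counts, also with a count in 18 libraries. LOC109095600, the histone H1.4-like row, held 1200 counts in 12 libraries. LOC109094295, histone H1.0-like, held 415 counts in 17 libraries. These 4 rows passed the low-count filter and were tested. The other 4 were not tested: LOC109087539, LOC109087549 and LOC109087548, all histone H1.0-like, held 6, 5 and 1 counts, and LOC109084820, histone H1-like, held 2 counts.

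No member had a name of an oocyte form, so maternal and somatic members could not be set against each other among the 8 rows. Of the rows outside the rule, 2 are described as protein B4-like, LOC109050417 with 95386 counts and LOC109079808 with 77982 counts. They were set beside the members as candidate oocyte linker histones by their description alone, after the rows matching the rule had been seen.

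RNA of the 8 rows named as linker histone H1 was scarce in early embryos and rose at gastrulation, while B4-like RNA fell. Linker histone genes described in other words are not covered by these sums. The summed level of the 8 rows was 1.00 ± 0.579 CPM (counts scaled to library size with TMM factors) at cleavage, 1.03 ± 0.326 at blastocyst, 9.96 ± 1.37 at gastrulation, 10.3 ± 1.08 at organ formation, 26.2 ± 3.89 at hatching and 27.2 ± 0.825 in the larva (mean ± SD, n = 3 libraries each here and below). The summed level of the 2 B4-like rows was 606 ± 99.4 CPM at cleavage, 905 ± 52.4 at blastocyst, 92.5 ± 13.7 at gastrulation, 1.62 ± 0.204 at organ formation, 0.453 ± 0.113 at hatching and 0.256 ± 0.0519 in the larva. In deposited RPKM, the read count per kilobase of length scaled to library size, the members summed to 1.44 ± 0.0237 at gastrulation, against 0.356 ± 0.127 at blastocyst. The B4-like rows were thus above the members up to gastrulation and below them from organ formation on. In whole-embryo RNA, fewer cells of a type and less RNA per cell cannot be told apart.

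**Figure D1:**
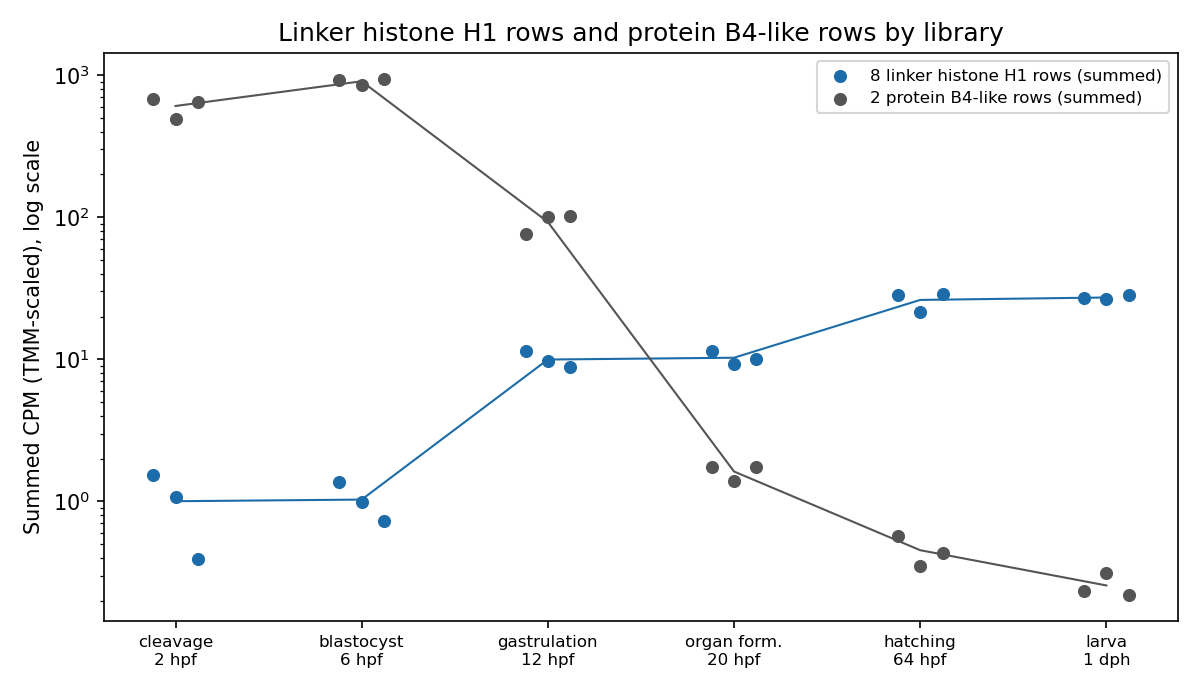
Summed level of the 8 linker histone H1 rows (blue) and of the 2 protein B4-like rows (grey) in each of the 18 libraries, in TMM-scaled CPM on a log axis, by stage; points are libraries and lines join the stage means. The B4-like sum lies above the H1 sum in every library up to gastrulation and below it in every library from organ formation on.

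Per length and within a library, the B4-like rows made up 99.8 ± 0.114% of the summed RPKM of B4-like rows and members at cleavage and 99.9 ± 0.0415% at blastocyst. The share was 91.2 ± 2.48% at gastrulation, 16.2 ± 0.432% at organ formation, 1.74 ± 0.270% at hatching and 1.06 ± 0.247% in the larva. A share of RPKM within a library does not depend on the library size the authors used. The members' own side of this ratio rests on 8 to 59 counts per cleavage library and on 639 to 760 counts per larva library.

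Members were compared between each stage and the one before it with edgeR's quasi-likelihood test, fitted over 69265 features and 18 libraries, with Benjamini-Hochberg adjusted p under 0.05 as the threshold. The test asked which linker histones change at which step of development. The scale matters here, since the median log2 change of all features at gastrulation against blastocyst was 0.75 with TMM factors, 0.10 with library totals alone and -0.06 with the library sizes implied by RPKM. Of the features called at that step, 66.6%, 52.7% and 46.2% were higher at gastrulation under these 3 scalings. At organ formation against gastrulation the medians were 0.25, 0.59 and 0.55, with 58.6%, 72.0% and 71.8% of calls higher at organ formation. The sizes implied by RPKM also moved the median of hatching against organ formation to 0.40, against -0.01 with TMM factors, and its higher calls to 86.7%, against 58.9%. At blastocyst against cleavage 70.8% of calls were higher with TMM factors and 54.8% with the sizes implied by RPKM, and at larva against hatching 46.5% and 64.8%. Each log2 change is the later stage minus the earlier one and is given with its standard error (SE).

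LOC109094231 had the highest counts of the members and 2 separate rises that passed the edgeR test. Its 3 cleavage libraries held 22, 9 and 7 counts, those of blastocyst 17, 11 and 11, those of gastrulation 65, 155 and 103, followed by 113, 94 and 82 at organ formation, 332, 266 and 404 at hatching and 401, 382 and 372 in the larva. In TMM-scaled CPM, gastrulation reached 4.37 ± 0.713, against 0.314 ± 0.0773 at blastocyst, a 13.9-fold ratio of the means. In deposited RPKM the means were 0.509 at gastrulation, against 0.0727 at blastocyst. The libraries of these stages did not overlap, and the rise passed the test (log2 change 3.78, SE 0.30, adjusted p = 3.1e-10 in edgeR), also with the library sizes implied by RPKM (log2 change 2.80).

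Organ formation, at 4.93 ± 0.785 CPM of LOC109094231, overlapped gastrulation, and this step did not pass the test (log2 change 0.17, SE 0.25, adjusted p = 0.60 in edgeR). Hatching then reached 10.8 ± 2.09 CPM, 2.18-fold the mean of organ formation, with no overlap between the libraries (log2 change 1.13, SE 0.24, adjusted p = 0.0011 in edgeR). Larvae had 15.1 ± 1.55 CPM, and all 3 larval libraries were above all 3 of hatching, but this step did not pass the test (log2 change 0.49, SE 0.23, unadjusted p = 0.047 and adjusted p = 0.21 in edgeR). The step did pass with limma on log2(RPKM + 1) (log2 change 0.41, adjusted p = 0.0048), but not with limma on log2(RPKM + 0.1). Cleavage, at 0.407 ± 0.147 CPM, overlapped blastocyst. The order of the levels was thus larva, hatching, organ formation and gastrulation, then cleavage and blastocyst, where organ formation overlapped gastrulation and cleavage overlapped blastocyst.

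LOC109094313 passed the edgeR test at 1 step, the rise at gastrulation. Its counts were 13, 8 and 1 at cleavage, 18, 15 and 12 at blastocyst, 77, 115 and 98 at gastrulation, 91, 86 and 84 at organ formation, 177, 136 and 182 at hatching and 159, 203 and 119 in the larva. The gastrulation level was 4.15 ± 0.968 CPM, against 0.363 ± 0.0685 at blastocyst, 11.4-fold by the means (log2 change 3.49, SE 0.36, adjusted p = 2.5e-08 in edgeR). In deposited RPKM the ratio of the means was 5.65, and the log2 change with the library sizes implied by RPKM was 2.48. The level was then 4.45 ± 0.211 CPM at organ formation, 5.33 ± 0.875 at hatching and 6.18 ± 0.937 in the larva, each stage overlapping the next. None of the 3 later steps passed the test, with log2 changes of 0.11, 0.26 and 0.21 and adjusted p = 0.80, 0.58 and 0.77 in edgeR. Hatching against organ formation did pass with limma on log2(RPKM + 1) and on log2(RPKM + 0.1) (adjusted p = 0.0029 and 0.029).

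LOC109095600, the histone H1.4-like row, had most of its counts in hatching embryos and larvae. It held 6, 7 and 0 counts in the cleavage libraries, 8, 0 and 0 in those of blastocyst, 5, 13 and 12 at gastrulation, 0 in all 3 libraries of organ formation, 268, 239 and 300 at hatching and 90, 120 and 132 in the larva. Of its summed stage means, 63.0% was at hatching and 32.7% in the larva. The gastrulation libraries, at 0.395 ± 0.0471 CPM, lay above those of blastocyst, at 0.0632 ± 0.109 CPM, where 2 of 3 libraries were at 0. This rise passed the test (log2 change 2.57, SE 0.80, adjusted p = 0.0086 in edgeR), but rests on 30 counts at gastrulation, against 8 at blastocyst, and was lost without blastocyst replicate 3 (adjusted p = 0.058) and with the library sizes implied by RPKM (adjusted p = 0.084). It was also lost with limma on log2(RPKM + 1) (log2 change 0.08, adjusted p = 0.51) and on log2(RPKM + 0.1) (adjusted p = 0.056).

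At organ formation 0 counts of LOC109095600 in 3 libraries allowed a level of up to 0.0511 CPM (3 counts over the 3 libraries together, counting error only). The stage was at least 7.73-fold lower than the gastrulation mean by that limit, which takes this mean of 30 counts as exact. The fall passed the test (adjusted p = 0.0024 in edgeR), but not with limma on log2(RPKM + 1) (log2 change -0.12, adjusted p = 0.33). Hatching embryos then had 8.67 ± 0.926 CPM, at least 169-fold more than organ formation (adjusted p = 4.4e-07 in edgeR). In larvae the level was 4.50 ± 1.19 CPM, 0.520 of the mean at hatching. The 3 larval libraries all lay below those of hatching, and the difference did not pass the test (log2 change -0.95, SE 0.50, adjusted p = 0.27 in edgeR), although it did when only the 6 libraries of these 2 stages were fitted (adjusted p = 0.014). This difference also passed with limma on log2(RPKM + 1) and on log2(RPKM + 0.1) (adjusted p = 1.3e-04 and 0.038).

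LOC109094295 was the least abundant of the tested members and the least certain. Its counts were 18, 8 and 0 at cleavage, 15, 14 and 7 at blastocyst, 19, 13 and 34 at gastrulation, 18, 6 and 26 at organ formation, 53, 38 and 35 at hatching and 43, 54 and 14 in the larva. Only gastrulation differed from the stage before, with 0.972 ± 0.478 CPM, against 0.290 ± 0.105 CPM at blastocyst (log2 change 1.70, SE 0.72, adjusted p = 0.042 in edgeR). That call did not hold with library totals (log2 change 1.07, adjusted p = 0.20) or with the library sizes implied by RPKM (log2 change 0.69, adjusted p = 0.39). At a similar size it was also lost with no low-count filter (log2 change 1.49, adjusted p = 0.077), with a filter of 1 CPM in 3 libraries (adjusted p = 0.067) and with only the 6 libraries of these stages (log2 change 1.47, adjusted p = 0.070). It was also lost when 1 of 12 of the 18 libraries was left out, with adjusted p from 0.051 to 0.19: cleavage replicate 2, any of the 3 of blastocyst, gastrulation replicate 1 or 3, organ formation replicate 1, any of the 3 of hatching, or larva replicate 1 or 2. In the order of stage means all neighbouring stages overlapped. Gastrulation and blastocyst are not neighbours in that order, and their libraries did not overlap (lowest 0.423 CPM, against highest 0.355 CPM).

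**Figure D2:**
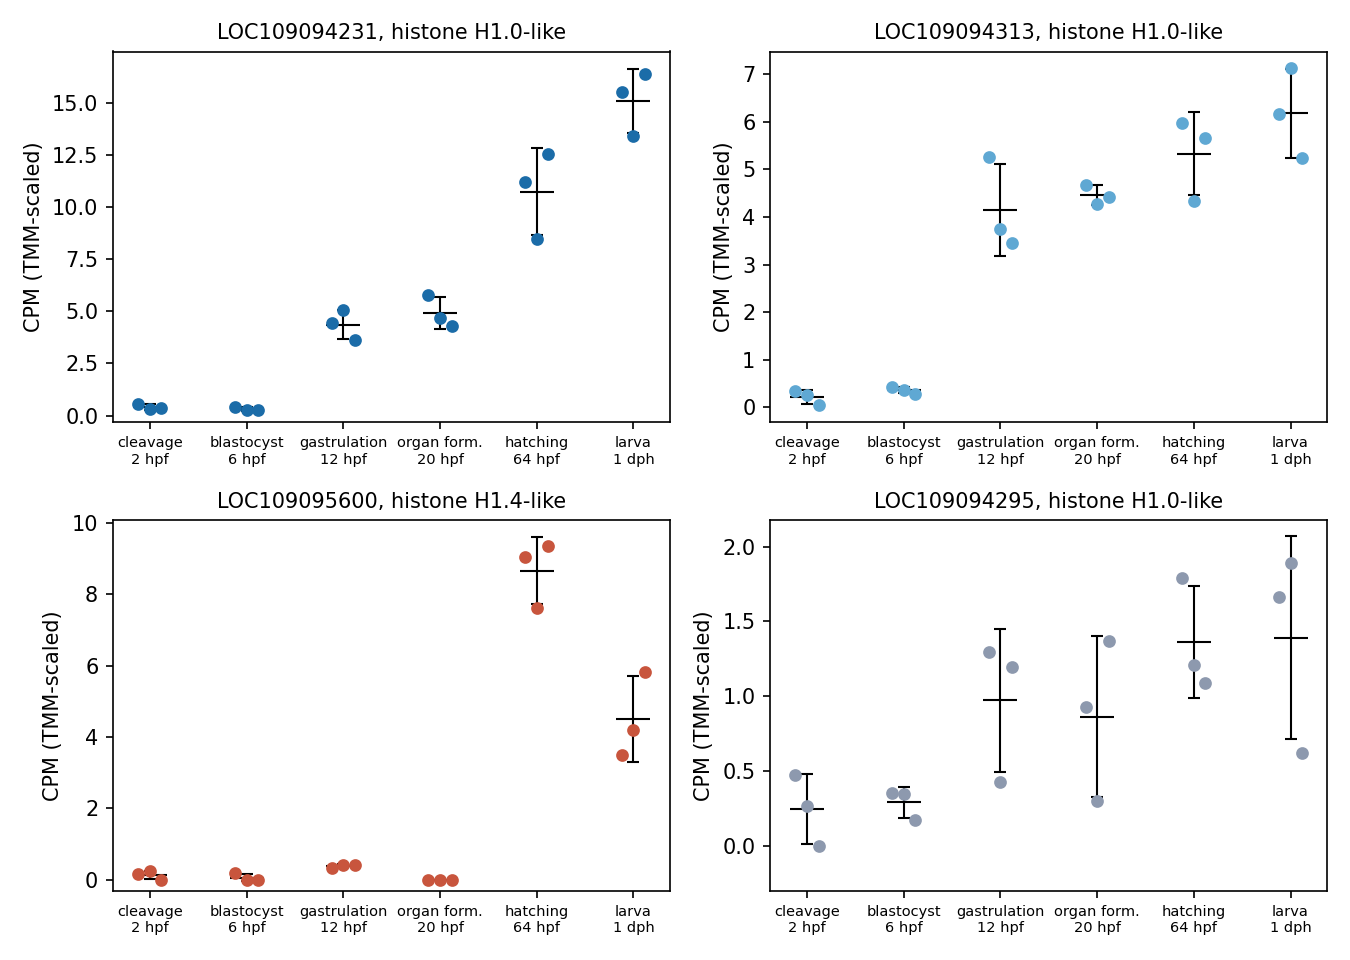
Level of the 4 tested linker histone H1 rows in each library (points), with the stage mean (wide bar) and SD (error bars), in TMM-scaled CPM by stage, n = 3 libraries; the vertical scale differs between panels. LOC109094231 and LOC109094313 stand above their early levels from gastrulation on, LOC109095600 is at 0 in organ formation and highest at hatching, and LOC109094295 scatters widely within stages.

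Step by step, 0 of the 4 tested members were called at blastocyst against cleavage, where 22.3% of all tested features were called, 15.8% higher and 6.52% lower at blastocyst, and none of the 4 had an unadjusted p under 0.05 in edgeR, while DESeq2 also called 0. The changes at this step were -0.41 (SE 0.35) for LOC109094231, 0.59 (SE 0.44) for LOC109094313, -1.10 (SE 0.91) for LOC109095600 and 0.12 (SE 0.76) for LOC109094295 on the log2 scale. At gastrulation against blastocyst all 4 tested members rose, where 66.7% of all tested features were called, 44.4% higher and 22.3% lower at gastrulation. At organ formation against gastrulation 1 of 4 was called, LOC109095600, where 48.0% of all tested features were called, 28.1% higher and 19.8% lower at organ formation.

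At hatching against organ formation 2 of 4 rose, LOC109094231 and LOC109095600, where 29.6% of all tested features were called, 17.4% higher and 12.2% lower at hatching. LOC109094295 had a log2 change of 0.66 (SE 0.68, adjusted p = 0.51 in edgeR) at that step. At larva against hatching 0 of 4 were called in edgeR, and 0 in DESeq2, where 11.5% of all tested features were called, 5.32% higher and 6.13% lower in the larva; LOC109094231 alone had an unadjusted p under 0.05. Among the 6 stages together all 4 tested members differed, where 93.7% of all tested features did, with adjusted p in edgeR of 9.7e-14 for LOC109094231, 1.4e-10 for LOC109094313, 7.9e-10 for LOC109095600 and 0.010 for LOC109094295. Rows that pass a low-count filter only through the stages where they are high are likely to differ among stages. The counts of called members therefore describe the 4 rows and give no support beyond them.

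**Figure D3:**
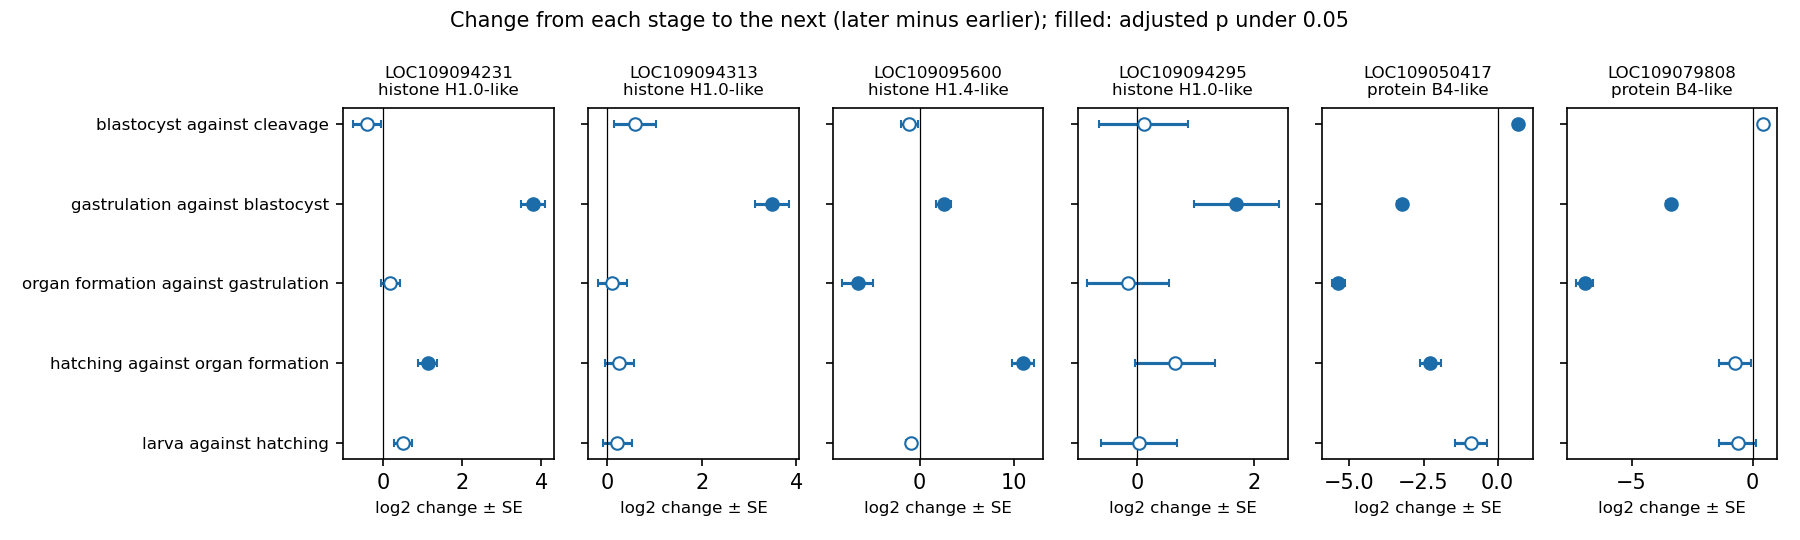
Log2 change of each tested member and each protein B4-like row from 1 stage to the next (later minus earlier, horizontal axis, with its own scale in each panel), with the standard error; filled points have an adjusted p under 0.05 in edgeR. All 4 members lie right of 0 at gastrulation against blastocyst, where both B4-like rows lie left of it; the points of LOC109095600 at both steps that involve organ formation are fitted against 0 counts and set no size.

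Both B4-like rows fell at gastrulation, the step at which the 4 tested members rose. LOC109050417 held 13072, 8049 and 6735 counts in the cleavage libraries, 22600, 19135 and 21583 in those of blastocyst, 724, 1880 and 1495 at gastrulation, 24, 24 and 29 at organ formation, 11, 5 and 9 at hatching and 0, 9 and 2 in the larva. LOC109079808 held 12972, 6647 and 6431 counts in the cleavage libraries, 16552, 15040 and 17333 in those of blastocyst, 401, 1179 and 1383 at gastrulation, 10, 4 and 4 at organ formation, 6, 6 and 5 at hatching and 6, 0 and 3 in the larva. At blastocyst LOC109050417 had 174 RPKM, above 99.95% of protein-coding rows.

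LOC109050417 averaged 54.4 ± 6.11 CPM at gastrulation, against 510.3 ± 32.9 CPM at blastocyst (log2 change -3.23, SE 0.18, adjusted p = 7.0e-13 in edgeR). LOC109079808 averaged 38.1 ± 10.7 CPM at gastrulation, against 394 ± 23.9 CPM at blastocyst (log2 change -3.36, SE 0.21, adjusted p = 3.2e-11 in edgeR). Both fell again at organ formation against gastrulation, with log2 changes of -5.37 for LOC109050417 and -6.94 for LOC109079808 (adjusted p = 5.4e-14 and 1.8e-12 in edgeR). Hatching against organ formation was a further fall for LOC109050417 (log2 change -2.27, SE 0.36, adjusted p = 4.8e-05 in edgeR), lost with limma on log2(RPKM + 1) (log2 change -0.25, adjusted p = 0.14). LOC109079808, at 4 to 10 counts per library of organ formation, did not pass (log2 change -0.74, SE 0.65, adjusted p = 0.43). At the first step, blastocyst against cleavage, LOC109050417 rose (log2 change 0.70, SE 0.16, adjusted p = 0.0029 in edgeR) and LOC109079808 did not pass (log2 change 0.43, SE 0.19, adjusted p = 0.12). These first-step calls depend on the processing: LOC109050417 did not pass with the library sizes implied by RPKM (adjusted p = 0.10), and LOC109079808 passed with a filter of 1 CPM in 3 libraries (adjusted p = 0.0069) and without any 1 of 6 libraries, which were cleavage replicates 2 and 3, blastocyst replicate 3 and all 3 of gastrulation (adjusted p from 0.0057 to 0.046). With limma on log2(RPKM + 0.1) LOC109050417 also did not pass (adjusted p = 0.12). Without a low-count filter, and with only the 2 stages fitted, LOC109079808 also passed (adjusted p = 0.010 and 0.023).

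The make-up of the members' summed RPKM, which leaves out the B4-like rows, changed with stage. The H1.4-like and H1-like rows together held 12.8 ± 13.1% of the members' summed RPKM at cleavage, 5.65 ± 9.79% at blastocyst, 6.79 ± 2.33% at gastrulation and 0% at organ formation. The blastocyst share comes from replicate 1 alone, at 17.0%, and is 0 without it, while the cleavage libraries ran from 0% to 26.1%. At hatching they held 44.5 ± 1.74%, with 42.8% in the lowest and 46.3% in the highest library, and in the larva 24.5 ± 5.87%, from 19.6% to 31.0%. The libraries of hatching and larva did not overlap each other or those of organ formation. With 3 libraries against 3, an exact permutation test cannot go below p = 0.10, so no test is given for these shares.

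**Figure D4:**
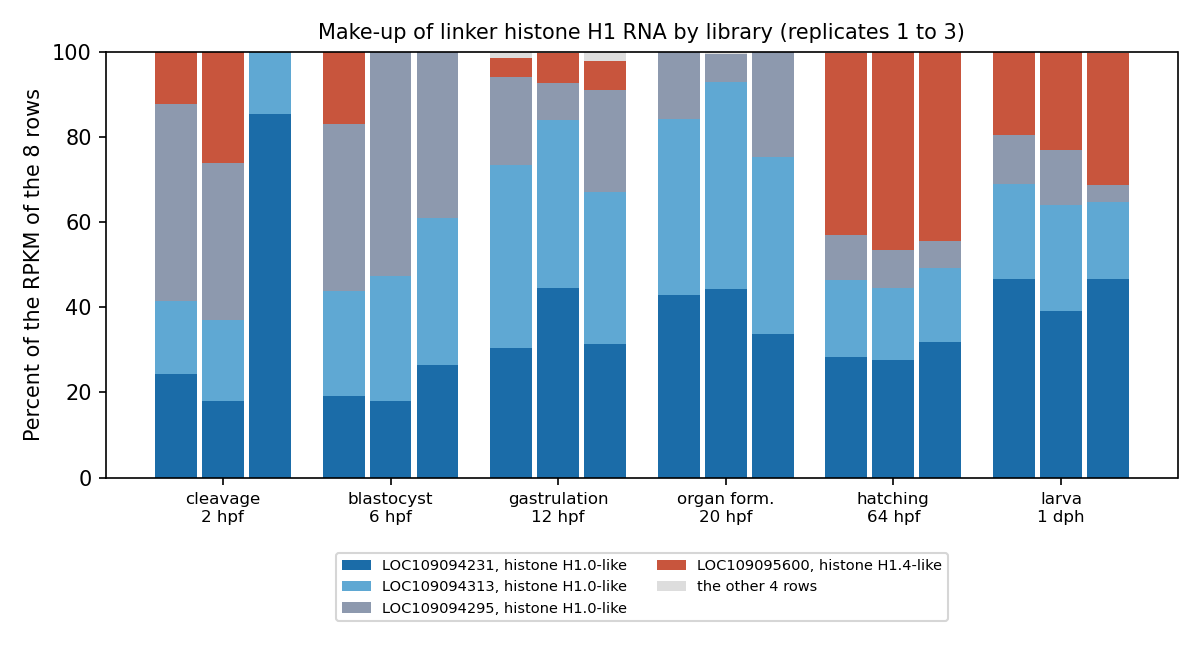
Share of each linker histone H1 row in the summed RPKM of the 8 rows, in percent, in each library; the 3 bars of a stage are its replicates 1 to 3, and each bar adds up to 100%. The H1.4-like row (red) is at 0 in organ formation and makes up 42.8% to 46.3% of that sum at hatching. The 4 rows with few counts are in light grey. The cleavage and blastocyst bars rest on 8 to 59 counts each.

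Per length, the H1.4-like row was the most abundant member at hatching, with 3.16 ± 0.374 RPKM, above 83.61% of protein-coding rows. LOC109094231 had 2.10 ± 0.423 RPKM, LOC109094313 had 1.25 ± 0.224 RPKM and LOC109094295 had 0.617 ± 0.182 RPKM at that stage. In the larva LOC109094231 led with 3.10 ± 0.353 RPKM, above 83.39% of protein-coding rows, followed by LOC109095600 with 1.73 ± 0.491 RPKM and LOC109094313 with 1.52 ± 0.212 RPKM. The members therefore stayed at moderate levels even where they were highest.

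The 3 counted H1.0-like rows also shifted among themselves. LOC109094313 held 42.6 ± 3.30% of the summed RPKM of LOC109094231, LOC109094313 and LOC109094295 at gastrulation and 43.9 ± 4.30% at organ formation, and 31.5 ± 0.401% at hatching and 28.7 ± 3.32% in the larva. LOC109094231 held 38.2 ± 8.52% at gastrulation, 40.4 ± 5.80% at organ formation, 52.9 ± 4.03% at hatching and 59.0 ± 8.59% in the larva. For both rows the hatching libraries did not overlap those of organ formation. For LOC109094313 they ran from 31.0% to 31.8% at hatching, against 41.4% to 48.9% at organ formation. The third row, LOC109094295, held 46.4 ± 6.97% at blastocyst, where the 3 rows had 30 to 50 counts per library. Its share was 19.2 ± 8.81% at gastrulation, with no overlap with the blastocyst libraries. Later it held 15.7 ± 9.10% at organ formation, 15.6 ± 3.64% at hatching and 12.3 ± 5.66% in the larva. The shares of cleavage rest on 8 to 53 counts of these rows per library and are not compared.

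The 3 H1.0-like rows with 6, 5 and 1 counts looked like copies of the 3 counted ones. In the deposited table LOC109087539, LOC109087549 and LOC109087548 lie on 1 unplaced scaffold. There 22 rows have the same descriptions in the same order as a chromosome stretch that holds LOC109094231, LOC109094313 and LOC109094295. Pairs were kept only where descriptions matched at a fixed row distance, and scaffold rows without a match were not counted. The lengths implied by RPKM were equal pair by pair: relative to LOC109094231 they were 1, 0.834 and 0.432 on both sequences. Over the 3 histone pairs the scaffold rows held 12 counts, against 4855 on the chromosome, or 0.247% of the counts of both.

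Over the 19 other pairs of that stretch the scaffold rows held 2630 counts, against 10186 on the chromosome, or 20.5%, and the scaffold row was the higher one in 2 of 19 pairs. One of these is described as WD repeat-containing protein 90-like, with 2262 counts on the scaffold, against 590 on the chromosome. That pair holds most of the 2630 scaffold counts, so 20.5% is not the share of a usual pair. Single pairs among the 19 ran from 0% to 98.0%, with LOC109094072 at 0.509% and LOC109094129 at 0.562%. The histone pairs ran from 0.210% to 0.313%. No source used here says how reads matching both copies were counted, so values of single copies are uncertain. In NCBI's gene table of assembly ASM1834038v1, used for names and neighbours only, 3 of the 8 members were found. There LOC109094231 lies on chromosome B24. LOC109087548, whose pair is LOC109094295 and not LOC109094231, lies on chromosome A24. Its neighbouring protein-coding genes are LOC109090380 and LOC109094129, which are rows of the chromosome stretch in the deposited table. LOC109095600 lies between a macrophage-expressed gene 1-like gene and tspan36.

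**Figure D5:**
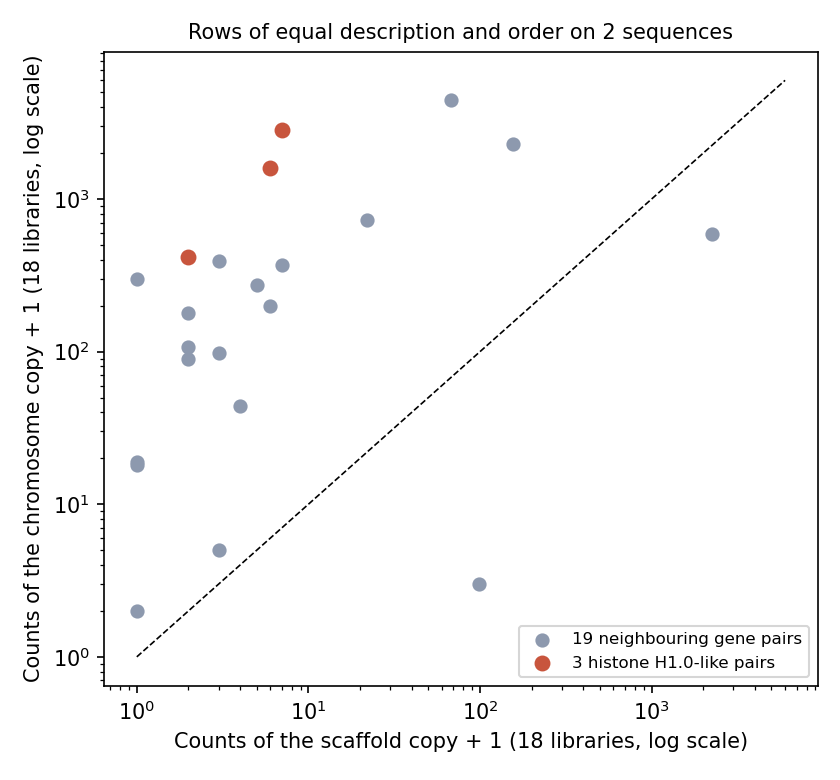
Counts over 18 libraries of 22 pairs of rows with equal descriptions in the same order, on the scaffold (horizontal) and on the chromosome (vertical), each plus 1, on log axes; the dashed line marks equal counts. The 3 histone H1.0-like pairs (red) hold 12 counts on the scaffold, against 4855 on the chromosome, and 2 of the 19 other pairs (grey) lie below the line.

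Genes that make or process histone messenger RNA did not move as a group with the members at gastrulation. Of the 19 tested genes of this list, 8 rose and 7 fell at gastrulation against blastocyst with TMM factors, 5 rose and 10 fell with library totals, and 1 rose and 10 fell with the library sizes implied by RPKM. With TMM factors 42.1% rose and 36.8% fell, against 44.4% and 22.3% of all features. Their median log2 change was -0.26, against 0.75 over all features. LOC109046674, a histone RNA hairpin-binding protein-like gene whose product binds the stem-loop of histone messenger RNA, had 346 ± 40.7 CPM at gastrulation, against 91.4 ± 3.32 CPM at blastocyst (log2 change 1.92, adjusted p = 5.5e-12 in edgeR). Symplekin (sympk), a scaffold of the complex that cuts the ends of messenger RNAs, had 214 ± 24.2 CPM at gastrulation, against 87.1 ± 3.43 CPM at blastocyst (adjusted p = 7.6e-10 in edgeR), a call lost with the library sizes implied by RPKM (log2 change 0.31, adjusted p = 0.094).

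The oocyte-specific stem-loop-binding protein 2-like genes, picked out after their values were seen, had their high levels at the stages where the B4-like rows had theirs. LOC109065807 had 184 ± 8.10 CPM at cleavage, 105 ± 8.30 at blastocyst and 2.56 ± 0.985 at gastrulation. LOC109077558 averaged 169 CPM at cleavage, 82.4 at blastocyst and 1.97 at gastrulation. After gastrulation the list fell: 0 rose and 12 fell at organ formation with TMM factors (2 and 11 with library totals), 0 rose and 12 fell at hatching (1 and 3 with the library sizes implied by RPKM), and 1 rose and 7 fell in the larva (1 and 4 with those sizes). The fallers were 63.2%, 63.2% and 36.8% of the list, against 19.8%, 12.2% and 6.13% of all features.

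Linker histone chaperones and high mobility group proteins handle linker histones or compete with them for nucleosomes. Most of those tested rose at gastrulation with TMM factors, but fewer did with library totals or the library sizes implied by RPKM. Of 40 tested genes 30 rose and 5 fell with TMM factors, 21 rose and 8 fell with library totals, and 19 rose and 11 fell with the library sizes implied by RPKM. The 30 of 40 that rose stand against 44.4% of all features that did, and the median log2 change was 2.05, against 0.75. LOC109072513, a nucleophosmin-like gene, had 879 ± 71.2 CPM at gastrulation, against 118 ± 8.56 CPM at blastocyst (log2 change 2.90, adjusted p = 4.7e-13 in edgeR). LOC109072997, nucleosome assembly protein 1-like 1, had 300 ± 15.6 CPM at gastrulation, against 251 ± 7.71 CPM at blastocyst (log2 change 0.25, adjusted p = 0.036 in edgeR). That change lies below the median of all features and turned into a fall with library totals (log2 change -0.41, adjusted p = 7.0e-04) and with the library sizes implied by RPKM (log2 change -0.74, adjusted p = 2.4e-04). At the later steps 4 rose and 15 fell at organ formation (11 and 13 with library totals), 8 rose and 13 fell at hatching (10 and 5 with the library sizes implied by RPKM), and 0 rose and 16 fell in the larva (1 and 10 with library totals, 0 and 5 with the sizes implied by RPKM). The fallers were 37.5%, 32.5% and 40.0% of the list with TMM factors, against 19.8%, 12.2% and 6.13% of all features.

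With TMM factors many core histone rows fell after gastrulation, but at organ formation and hatching the number depended on the scaling. LOC109094231, LOC109094313 and LOC109094295, the only tested H1.0-like rows, were not called as falling at the steps after gastrulation. Of all features 19.8%, 12.2% and 6.13% fell at these steps, so such few rows set no contrast with the core histones. Of 166 tested core histone rows 126 rose and 13 fell at gastrulation with TMM factors, 88 and 19 did with library totals, and 56 and 23 with the library sizes implied by RPKM. With TMM factors 75.9% rose, against 44.4% of all features. At organ formation 5 rose and 123 fell (8 and 77 with library totals, 8 and 69 with the library sizes implied by RPKM), at hatching 5 rose and 81 fell (8 and 17 with the library sizes implied by RPKM), and in the larva 1 rose and 111 fell (1 and 93 with those sizes). With TMM factors the fallers were 74.1%, 48.8% and 66.9% of the list, against 19.8%, 12.2% and 6.13% of all features. Their summed level was 63839 ± 5698 CPM at gastrulation, 34825 ± 997 at organ formation, 23375 ± 4869 at hatching and 12579 ± 1483 in the larva. In RPKM, over 172 rows, the sum was 18481 ± 3513 at gastrulation, 12578 ± 809 at organ formation, 11244 ± 2482 at hatching and 6327 ± 874 in the larva, so that hatching and organ formation overlapped. LOC109051002 and LOC109060821, both histone H2A-like, were the most abundant, with log2 changes of -0.62 and -0.62 at organ formation against gastrulation (adjusted p = 2.9e-04 and 1.1e-04 in edgeR). With the library sizes implied by RPKM both changes were -0.30 and did not pass (adjusted p = 0.13 and 0.12).

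With TMM factors most S phase genes fell at hatching and again in the larva. Of 38 tested genes 22 rose and 8 fell at gastrulation with TMM factors (16 and 14 with the library sizes implied by RPKM), 10 rose and 19 fell at organ formation (14 and 16 with library totals), 0 rose and 33 fell at hatching (0 and 19 with the library sizes implied by RPKM), and 0 rose and 22 fell in the larva (0 and 10 with those sizes). With TMM factors 57.9% rose at gastrulation, against 44.4% of all features, and 26.3% at organ formation, against 28.1%. The fallers were 86.8% at hatching and 57.9% in the larva, against 12.2% and 6.13% of all features, and 19 of 38 at organ formation, against 19.8%. LOC109112777, subunit M2 of the ribonucleotide reductase that makes DNA precursors, had 159 ± 17.0 CPM at hatching, against 426 ± 4.81 CPM at organ formation (log2 change -1.42, adjusted p = 3.2e-09 in edgeR). LOC109113563, a second gene described as this subunit, had 176 ± 27.5 CPM at hatching, against 446 ± 20.5 CPM at organ formation (log2 change -1.34, adjusted p = 1.3e-08 in edgeR). LOC109094231 and LOC109095600 rose at that same step, and the part of cell division in these rises was not tested.

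Maternal oocyte genes fell at gastrulation and organ formation, where both B4-like rows fell. Of 53 tested genes 0 rose and 39 fell at gastrulation, 0 rose and 50 fell at organ formation, and 0 rose and 30 fell at hatching. The fallers were 73.6%, 94.3% and 56.6% of the list, against 22.3%, 19.8% and 12.2% of all features. At blastocyst against cleavage 0 oocyte genes rose, 8 fell and 45 did not pass (0 rose and 17 fell with the library sizes implied by RPKM). The 8 fallers were 15.1% of the list, against 6.52% of all features. LOC109050417 rose at this step with TMM factors, while LOC109079808 did not pass. Of the oocyte genes named next, LOC109097738 fell there (log2 change -0.42, adjusted p = 0.038 in edgeR). LOC109109986 did not pass (log2 change 0.53, adjusted p = 0.12 in edgeR). LOC109097738, zygote arrest protein 1-like, had 13.9 ± 1.77 CPM at gastrulation, against 180 ± 8.31 CPM at blastocyst (log2 change -3.69, adjusted p = 1.9e-14 in edgeR). LOC109109986, wee1-like protein kinase 2, a brake on the cell cycle of oocytes, had 8.65 ± 4.81 CPM at gastrulation, against 385 to 399 CPM in the blastocyst libraries (log2 change -5.45, adjusted p = 6.4e-12 in edgeR).

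Red blood cell markers, mostly hemoglobins, rose at organ formation and again at hatching, and were lower in the larva. Their summed level was 2.97 ± 0.343 CPM at cleavage, 3.69 ± 0.0286 at blastocyst, 22.6 ± 2.73 at gastrulation, 877 ± 10.4 at organ formation, 6520 ± 864 at hatching and 2718 ± 147 in the larva, with 2 of 37 markers at 0 in organ formation and 3 of 37 at hatching. Of 30 tested markers 23 rose and 1 fell at organ formation, 18 rose and 0 fell at hatching, and 0 rose and 17 fell in the larva. The risers were 76.7% at organ formation, against 28.1% of all features, and 18 of 30 at hatching, against 17.4%, and the fallers 56.7% in the larva, against 6.13%. LOC109056219, hemoglobin embryonic subunit alpha, had 1765 ± 282 CPM at hatching, against 169 ± 4.84 CPM at organ formation (log2 change 3.38, adjusted p = 6.6e-12 in edgeR). LOC109056264, hemoglobin subunit alpha-1-like, had 823 ± 78.8 CPM at hatching, against 81.0 ± 5.96 CPM at organ formation (log2 change 3.35, adjusted p = 7.3e-12 in edgeR). At organ formation, hatching and larva the H1.4-like row had 0, 8.67 and 4.50 CPM. Among the H1.0-like rows, LOC109094231 had 4.93, 10.8 and 15.1 CPM and LOC109094313 had 4.45, 5.33 and 6.18 CPM. LOC109094295 had 0.863, 1.36 and 1.39 CPM. The part of blood cells in the members' levels was not tested.

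Other genes followed the members' courses closely, as many genes can over 6 points. Likeness was taken as Pearson's r of log2(mean CPM + 0.5) over the 6 stage means, among 16089 named protein-coding rows with a mean of at least 10 CPM, and is a description with no test. Such an r compares the shape of a course and not the size of its changes. For LOC109094231, which was highest both in summed counts and in the share of its level found in the larva (42.1%), the 4 closest rows were an AMP-activated protein kinase alpha-2-like gene (LOC109113302, r = 0.9983), a CD99 antigen-like protein 2 gene (LOC109049216, r = 0.9983), ip6k2 (r = 0.9978) and an MRCK alpha-like kinase gene (LOC109089642, r = 0.9978). For this member 1895 rows had r of 0.9 or more. For LOC109094295, which had the highest share of its level at cleavage (4.81%), the closest were an endothelin-1 receptor-like gene (LOC109092958, r = 0.9993), a shisa-7-like gene (LOC109112018, r = 0.9989), an LMO3-like gene (LOC109051850, r = 0.9984) and another endothelin-1 receptor-like gene (LOC109065389, r = 0.9977). That cleavage share rests on 18, 8 and 0 counts. The stage means of LOC109094295 ran from 0.246 to 1.39 CPM, against 0.0448 to 33.05 CPM for LOC109092958. For LOC109095600, added after its values were seen, 197 rows had r of 0.9 or more, and the closest was sox4 (r = 0.9976), with 142 CPM at hatching, 114 in the larva and 40.5 to 51.2 at the 4 earlier stages.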

How the data were processed

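The deposited counts are whole reads per gene for 18 libraries, and the deposited RPKM are per kilobase and library size, per the file headers. Per the submitters' processing notes the authors used HISAT2, StringTie 1.3.3b, featureCounts and edgeR; settings, strand option, build and library size for RPKM are not stated in any source used here. Each count file equalled the series table (0 values differed), and no libraries of a stage agreed within counting noise (lowest chi-square per degree of freedom 3.68). edgeR 4.0.16 in R 4.3.3 (filterByExpr, TMM factors, robust quasi-likelihood fit, 1 coefficient per stage) was tested on simulated data first. Alternatives were other scalings and filters, DESeq2 1.42.0, limma 3.58.1 on log2 RPKM, fits to 2 stages, a replicate block and leaving out libraries. Replicate numbers did not pair libraries of neighbouring stages: 1 of 15 same-numbered pairs had a correlation of deviations over 0.1. Members, lists and tests were chosen with earlier results of these data known. Named were all members and the 2 most abundant genes of each list. Also named were the 4 rows most like each rule-picked member, LOC109094231 (highest counts and highest larva share) and LOC109094295 (highest cleavage share). The row closest to LOC109095600 and the oocyte-specific stem-loop-binding genes were added after values were seen. Limits of 3 counts cover counting error only. No sequence of a member was analysed here.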

Additional observations from a re-analysis of the deposited data

How the results depend on the processing

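No called direction of a member or B4-like row was reversed under the alternatives run. The number of members called at gastrulation against blastocyst was 4, 3 with library totals, without a low-count filter or with one of 1 CPM in 3 libraries, and 2 with the library sizes implied by RPKM, with only the 6 libraries of these stages, and with limma on log2(RPKM + 1) or log2(RPKM + 0.1); it ran from 2 (without blastocyst replicate 3) to 4 when 1 library was left out. At organ formation against gastrulation it was 1, and 0 with only these 2 stages and with limma on log2(RPKM + 1). LOC109095600 was not tested in the 2-stage fits of gastrulation against blastocyst and of organ formation against gastrulation. LOC109094295 was not tested with limma. Some of the lower counts at these steps thus come from untested rows and not from lost calls. In both limma fits, however, LOC109095600 was tested and lost its call at gastrulation against blastocyst. At larva against hatching the number of members called was 0, and 1 with only these 2 stages (LOC109095600). With limma it was 2 on log2(RPKM + 1) (LOC109094231 and LOC109095600) and 1 on log2(RPKM + 0.1) (LOC109095600). At blastocyst against cleavage it ran from 0 to 1 over the left-out libraries; the 1 was LOC109095600 without blastocyst replicate 1, which leaves that stage at 0 counts (adjusted p = 0.014). The cause of the other moves among tested rows was not tested. At hatching against organ formation it was 2 under each alternative except limma on log2 RPKM, with 3 of 3 tested at either offset, where LOC109094313 also passed (adjusted p = 0.0029 and 0.029). Among the 6 stages it was 4, and 3 of 3 tested with limma. LOC109050417 lost its call at hatching against organ formation with limma on log2(RPKM + 1) (adjusted p = 0.14) and passed at larva against hatching without larva replicate 2 (adjusted p = 0.022). LOC109094231 and LOC109094313 kept their gastrulation calls under all 10 other settings and all 18 left-out libraries.

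As shares of counts in place of RPKM, the H1.4-like and H1-like rows held 4.33% at gastrulation, 33.3% at hatching and 16.5% in the larva, and the B4-like rows 13.7% at organ formation. With the replicate number as a block, 4 members were called at gastrulation and no call of a member or B4-like row changed (LOC109094295 kept an adjusted p of 0.048); 8 of 15 later-stage libraries correlated best with their own number, which the labels do not say is shared. Depth limits the members most at cleavage, with 8 to 59 counts per library.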

Other observations

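Linker and core histone RNA were also set side by side within each library. Per length, B4-like rows and members together came to 2.21 ± 0.363% of the summed RPKM of 172 core histone rows at cleavage and 2.18 ± 0.156% at blastocyst, then 0.0923 ± 0.0132% at gastrulation, 0.0170 ± 0.00168% at organ formation, 0.0654 ± 0.00562% at hatching and 0.113 ± 0.0106% in the larva (mean ± SD, n = 3 libraries each). The lowest ratio of this sum was thus at organ formation, where B4-like RNA was nearly gone. The 8 members alone came to 0.00376 ± 0.00252% at cleavage, 0.00257 ± 0.000849% at blastocyst and 0.00796 ± 0.00147% at gastrulation. Their lowest mean was at blastocyst, where the libraries overlapped those of cleavage. The members then came to 0.0142 ± 0.00142% at organ formation, 0.0643 ± 0.00556% at hatching and 0.112 ± 0.0105% in the larva, with no overlap between the libraries of these 3 stages. These ratios hold only the rows named by the rule and the 2 B4-like rows, and they compare RNA, not protein.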
